A study of Homo sapiens with 6 samples.

Results

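The genes described here are 10 genes of the integrated stress response: the transcription factors ATF4, ATF3, DDIT3, CEBPB and CEBPG, the pseudokinase TRIB3, the phosphatase subunit PPP1R15A, the kinases EIF2AK3 and EIF2AK4, and their substrate EIF2S1. They were chosen by name as the genes whose symbol is the sole annotation of a probe set (a group of short probes read as 1 value), and all 10 were found among 18132 measured genes, with 26 of 44994 single-symbol probe sets. The data are 6 Affymetrix arrays, 1 sample each, from 786-O, a long-established cell line grown out of a human renal cell carcinoma. In 3 of the samples the cells carried a control short hairpin (shNC), and in the other 3 a hairpin that targets ERCC6L, a DNA translocase of anaphase (shERCC6L). All 6 samples therefore carried an shRNA construct, brought in by lentivirus per the labels, and none was untreated. No label gives the number of hairpins, the time after infection, or whether replicates were separate cultures, so the p-values reflect only how far these arrays vary, and that variation may be technical.

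In this pathway several forms of stress converge on 1 step. The kinases PERK (EIF2AK3, which senses unfolded protein in the endoplasmic reticulum) and GCN2 (EIF2AK4, which senses uncharged tRNA) phosphorylate the alpha subunit of the initiation factor eIF2 (EIF2S1), which lowers translation in general but lets ribosomes reach the coding region of ATF4 mRNA. ATF4 protein then pairs with C/EBP factors on composite DNA elements and raises genes for amino acid supply, tRNA charging and further stress factors, while PPP1R15A, also called GADD34, recruits a phosphatase that reverses the phosphorylation. Arrays read mRNA alone, so neither phosphorylation nor ATF4 protein was measured.

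ERCC6L itself, on chromosome X from 72204665 to 72239027 (GRCh38.p14), had a mean signal of 249 in shNC and 97.6 in shERCC6L, which is 39.3% of the control. Array medians lay between 60.04 and 61.56, so the middles of the deposited signals were alike. Every shERCC6L array had a smaller lower quartile than every shNC array, 17.05 to 17.46 against 17.57 to 17.86. Every shERCC6L upper quartile was larger, 221.8 to 225.0 against 216.7 to 220.9. Counts of changed genes with quantile normalization follow below. Of 9 markers of renal epithelium and renal carcinoma 8 were measured, and all 8 (PAX8, PAX2, KRT8, KRT18, VIM, CDH6, CDH2 and EPAS1) reached the median level of the genes measured. The 4 endothelial, 3 measured leukocyte and 4 fibroblast markers all lay below it, with summed signals of 208 to 217, 43.8 to 51.6 and 117 to 126 on the shNC arrays and 203 to 211, 44.3 to 48.9 and 99.95 to 102 on the shERCC6L arrays. Of these 11 markers COL1A1, a fibroblast collagen gene, passed, at -0.38 (-0.07 and not past the threshold with its probe sets averaged). The part of such cells in the changes below was not tested. Of the 8 renal markers 2 passed as higher, PAX8 at 0.34 and KRT18 at 0.13. Another 3 passed as lower, CDH6 at -0.50, EPAS1 at -0.36 and CDH2 at -0.26, and PAX2, KRT8 and VIM did not pass. In such bulk RNA, fewer cells with a transcript and less of it per cell cannot be told apart.

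Changes below are log2 fold changes of shERCC6L over shNC, computed on signal + 16, a pseudocount that understates the change of dim genes. Each gene was represented by its brightest probe set, and limma p-values were adjusted over all genes with a threshold of 0.05. At that threshold 31.6% of all genes passed, 13.4% lower and 18.2% higher. In the brighter part of the array, genes with a mean level no lower than the median, 52.4% passed, 19.6% lower and 32.8% higher. With quantile normalization 2651 of all genes were lower and 2954 higher, against 2431 and 3302 without it. Of the 10 stress response genes, 5 passed as lower and 0 as higher, and 2 (PPP1R15A and EIF2S1) were higher at an unadjusted limma p under 0.05. At that unadjusted cut 3978 of all 18132 genes were higher and 3308 lower. The 5 that fell were the 5 transcription factors ATF4, CEBPB, DDIT3, CEBPG and ATF3, by 0.21 to 0.38, which left 76.8% to 84.9% of the control signal. The kinases, their substrate, TRIB3 and PPP1R15A did not pass. The median change of the 10 was -0.12, beside -0.01 for all genes and 0.04 for the brighter ones.

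**Figure D1:**
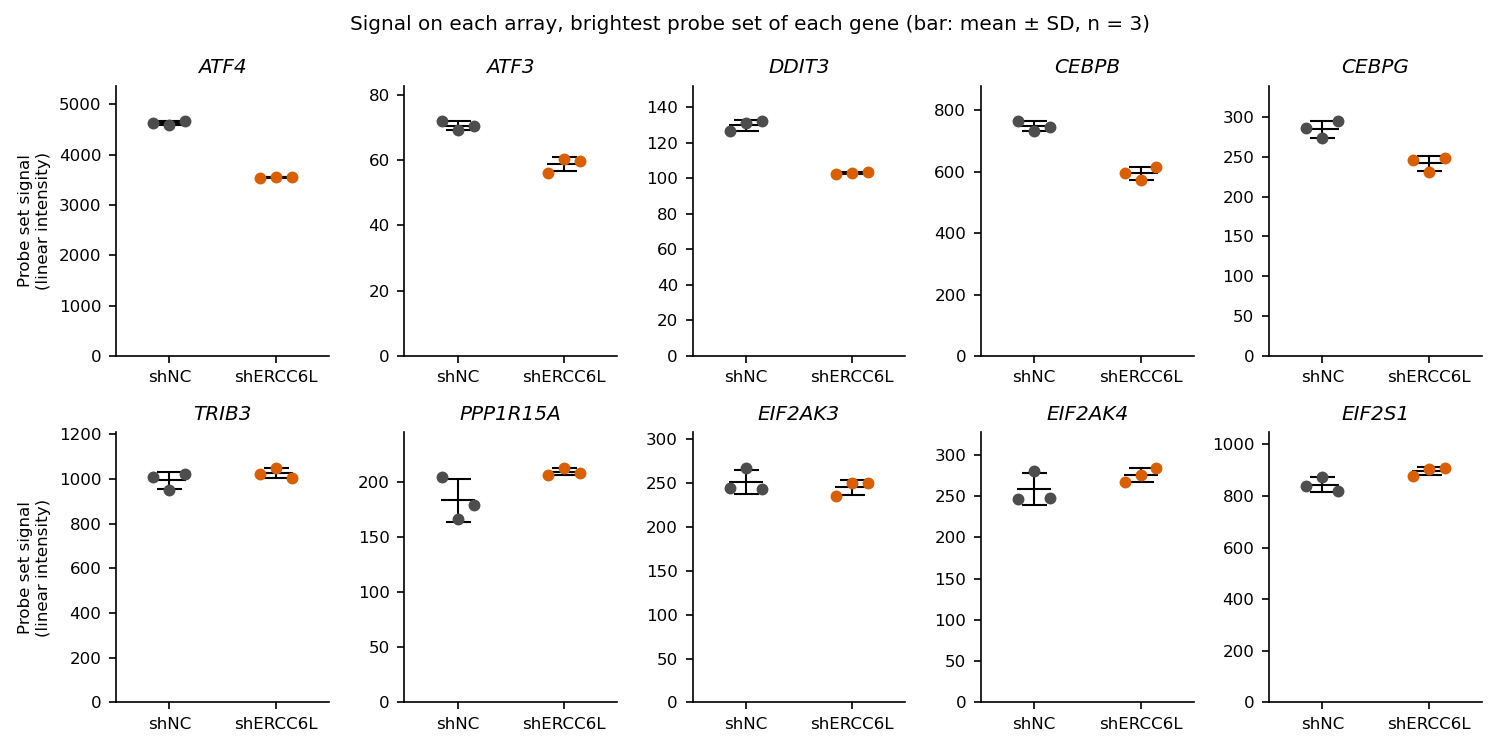
Probe set signal (linear intensity, axes from 0) of the 10 genes on each of 6 arrays, grey for shNC and orange for shERCC6L, with the mean and SD of 3 arrays. For ATF4, ATF3, DDIT3, CEBPB and CEBPG every shERCC6L array lies below every shNC array; for PPP1R15A and EIF2S1 every shERCC6L array lies above, and for TRIB3, EIF2AK3 and EIF2AK4 the groups overlap.

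ATF4, the factor at the centre of the response, has 1 probe set here and lies on chromosome 22 from 39520559 to 39522686. Its signal was 4626, 4582 and 4666 in shNC, against 3545, 3548 and 3565 in shERCC6L. The groups were far apart compared with their spread, with standard deviations of 41.9 and 10.7 around means of 4625 and 3553. This amounts to -0.38 ± 0.03 (SE, 3 arrays in each group; adjusted p = 2.7e-05 by limma), or 1.30-fold lower. Across 15 alternative settings it stayed between -0.39 and -0.37. RefSeq lists 4 pseudogenes named for ATF4, and the probe set's name ends in _x_at, Affymetrix's mark for probes that may also match other sequences, and whether these probes also read the pseudogenes was not tested.

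CEBPB, a C/EBP factor that dimerises with ATF4, lies on chromosome 20 from 50190583 to 50192690. Its single probe set read 765, 733 and 747 in shNC and 595, 572 and 617 in shERCC6L. No shERCC6L array reached the lowest shNC array, and the change was -0.32 ± 0.04 (limma adjusted p = 2.3e-04). CEBPG, a short C/EBP protein that serves as another partner of ATF4, lies on chromosome 19 from 33373709 to 33382686. On its brightest probe set it read 286, 273 and 295 in shNC and 246, 231 and 248 in shERCC6L, a change of -0.22 ± 0.04 (limma adjusted p = 0.0032). The other CEBPG probe set read 216, 219 and 216 in shNC and 154, 163 and 166 in shERCC6L, a larger fall of 0.40 ± 0.04. Both probe sets passed, and the difference between their changes, -0.18, had an exact permutation p of 0.1, the smallest that 3 arrays against 3 can give (2-sided; 0.23 adjusted over the 16 such pairs of probe sets compared).

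DDIT3, which encodes CHOP, the factor that tips prolonged stress towards cell death, lies on chromosome 12 from 57516588 to 57520517. The brighter of its probe sets read 126, 131 and 132 in shNC and 102, 103 and 104 in shERCC6L. The shERCC6L arrays were nearly equal, with a standard deviation of 0.672, and the change was -0.29 ± 0.03 (limma adjusted p = 1.5e-04). The dimmer one read 102, 115 and 109 in shNC and 83.7, 81.6 and 76.0 in shERCC6L, and fell by 0.37 ± 0.05. DDIT3 was thus lower on both of its probe sets.

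ATF3, a stress-inducible repressor and activator downstream of ATF4, lies on chromosome 1 from 212565407 to 212620777. Of its 7 probe sets the brightest read 71.9, 69.4 and 70.5 in shNC and 56.2, 60.2 and 59.9 in shERCC6L, a change of -0.21 ± 0.04 (limma adjusted p = 0.0018). The next, an _x_at, read 67.5, 61.7 and 64.3 in shNC and 45.7, 53.7 and 52.7 in shERCC6L. It fell by 0.27 ± 0.05. Those were the 2 ATF3 probe sets that passed in the fit of all probe sets; the other 5 had changes between -0.18 and -0.02. All 7 lay below 0, but the dimmest 3 read 8.23 to 15.7 on every array, where the pseudocount of 16 exceeds the signal. With a gene's probe sets averaged, the ATF3 change was -0.12 and still passed (limma adjusted p over 15 settings 0.0013 to 0.0092).

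Among the members that act on eIF2, the 2 kinases did not pass on any of their probe sets. EIF2AK3, on chromosome 2 from 88556741 to 88628145, read 244, 268 and 243 in shNC and 236, 250.2 and 250.2 in shERCC6L. The groups overlapped, and the change of -0.03 had a 95% interval of -0.14 to 0.07. Its other 2 probe sets gave -0.08 and -0.03. EIF2AK4, on chromosome 15 from 39934115 to 40035591, read 246, 280.3 and 247 in shNC and 267, 276 and 284 in shERCC6L, on an _x_at. Its change of 0.09 had an interval of -0.03 to 0.21, and the dimmer probe set gave -0.06. One shNC array, replicate 2, read higher than the rest of its group, and without it EIF2AK4 passed at 0.15 (limma adjusted p = 0.028).

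EIF2S1, the substrate of those kinases, lies on chromosome 14 from 67360328 to 67386516, and its 5 probe sets gave unequal changes. The brightest, also an _x_at, read 838, 875 and 821 in shNC and 879, 903 and 909.7 in shERCC6L. Every shERCC6L array lay above every shNC array, yet by little, and the change of 0.09 ± 0.04 did not pass (limma adjusted p = 0.11; 95% interval 0.00 to 0.17). On the second probe set the signals were 506, 527 and 540.4 in shNC and 645, 673 and 661 in shERCC6L, a rise of 0.32 ± 0.04. On this probe set the groups lay well apart. The fourth read 409.9, 409 and 421 in shNC and 518, 546 and 560.2 in shERCC6L, and rose by 0.38 ± 0.04. On the fifth, 120.3, 125 and 128 in shNC stood against 160 to 172 in shERCC6L, a rise of 0.37 ± 0.04. The third, at 0.11 ± 0.04, did not pass.

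All 5 EIF2S1 probe sets were therefore above 0, and 3 passed among all probe sets, where 29.0% passed, 17.0% higher and 12.0% lower. Where on the transcript each probe set lies is not given in the files used here. For the 3 that rose, the change exceeded that of the brightest by 0.24 to 0.29, with no overlap between groups in the array-wise difference and an exact permutation p of 0.1, the smallest possible (0.23 adjusted over 16 pairs). Averaging all 5 gave 0.25, which passed (limma adjusted p = 7.7e-05), so whether EIF2S1 counts as higher rests on which probe sets represent it.

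PPP1R15A, the inducible phosphatase subunit that ends the response, lies on chromosome 19 from 48872421 to 48876058. Its single probe set, another _x_at, read 204, 166 and 179 in shNC and 206, 213 and 208 in shERCC6L. The groups did not overlap, but shNC replicate 1 came within a few units of the shERCC6L arrays, and the shNC standard deviation of 19.2 stood against 3.32 in shERCC6L. The change was 0.18 ± 0.06 and missed the threshold (limma adjusted p = 0.053). It passed in 6 of 15 alternative settings, and without shNC replicate 1 it was 0.26 (limma adjusted p = 0.0034). TRIB3, a pseudokinase that ATF4 and CHOP induce and that feeds back on ATF4, lies on chromosome 20 from 380760 to 397559. It read 1008, 951 and 1021 in shNC and 1024, 1050.2 and 1006 in shERCC6L. These groups overlapped, and the change of 0.05 had a 95% interval of -0.04 to 0.14. The other TRIB3 probe set gave 0.06, and no setting brought TRIB3 past the threshold. TRIB3 and PPP1R15A are themselves known targets of ATF4, and neither passed, with changes of 0.05 and 0.18.

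**Figure D2:**
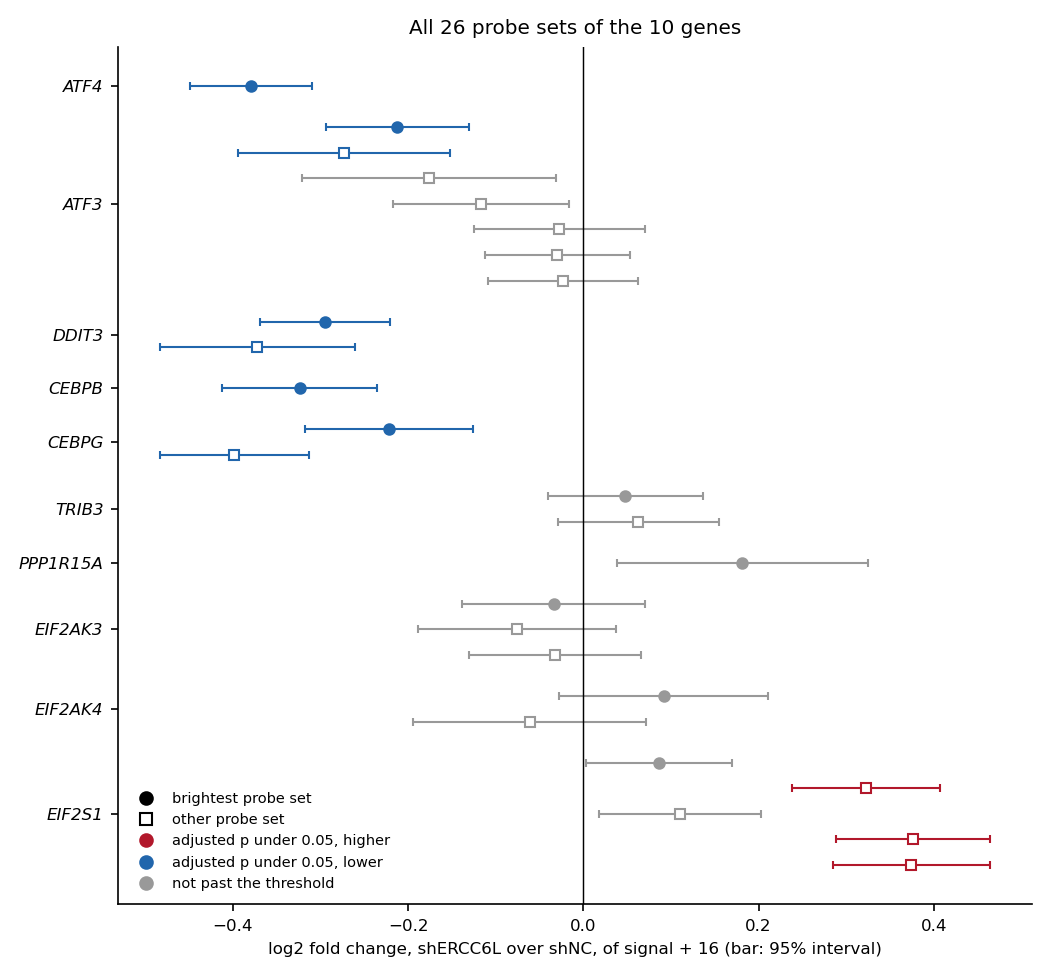
Log2 fold change of shERCC6L over shNC (signal + 16) with its 95% interval from limma for all 26 probe sets, grouped by gene; filled circles mark each gene's brightest probe set, and colour marks the direction of those with an adjusted p under 0.05. The 8 probe sets that passed as lower belong to ATF4, ATF3, DDIT3, CEBPB and CEBPG, and the 3 that passed as higher all belong to EIF2S1.

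Set among all genes, the 5 falls were moderate. Of 5733 genes past the threshold 74, or 0.408% of all genes, changed by at least 2-fold, and none of the 10 was among them. In the order of falls, ATF4 stood at place 592 and CEBPB at 762, followed by DDIT3 at 855, CEBPG at 1275 and ATF3 at 1349 of 18132. By lack of overlap between the groups, 5 of the 10 were lower and 2 higher, beside 20.3% lower and 23.1% higher of all genes.

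**Figure D3:**
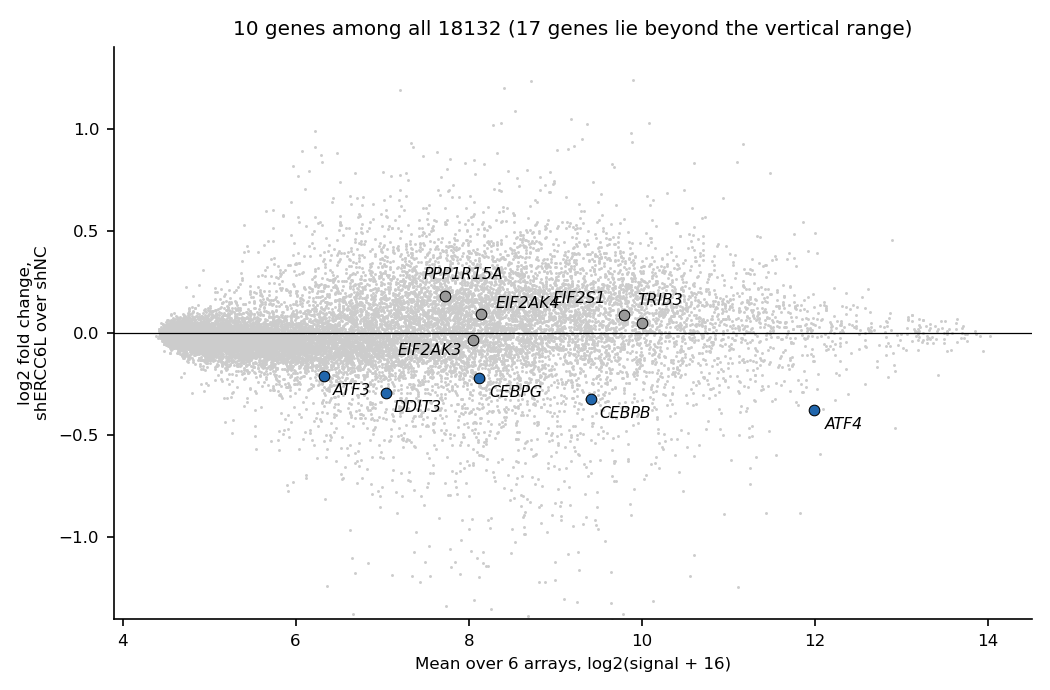
Mean log2(signal + 16) over 6 arrays against the log2 fold change of shERCC6L over shNC for 18132 genes (grey; 17 lie beyond the vertical range), with the 10 stress response genes in blue where they passed as lower and in dark grey where they did not pass. The 5 genes that fell lie between -0.38 and -0.21, ATF4 lowest, and the other 5 between -0.03 and 0.18.

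Known targets of ATF4, and in the third list of ATF4 or CHOP, were examined in 3 lists and are called ATF4 targets below. Of the 58 measured genes 37 were lower, 63.8%, and 3 higher, and the median change was -0.21. Of all genes 13.4% were lower, and of the brighter ones, to which 48 of the 58 belong, 19.6%. All lists here were chosen with earlier results of these data known, so their shares describe and do not test. Many targets of ATF4 carry a DNA element, the C/EBP-ATF response element, in which bases read by C/EBP meet bases read by ATF. Its usual form, TGATGCAA, was looked for on both strands in windows from 250 bases before to 50 bases after RefSeq gene starts (GRCh38.p14). All 10 stress response genes had a window, 17 in all. Of all 35116 windows 0.866% held it, which is 1.08% of all genes with a window and 0.943% of the measured ones. Of the 45 ATF4 targets with a window 12 held it, or 26.7%. The element was chosen after the values were seen, and genes may be known as targets because they carry it. The higher share is therefore a description and not a test.

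CEBPG was the member whose window held TGATGCAA, 42 bases before 1 of its 2 starts. The 250 bases upstream of that start (chr19:33373863-33374112, plus strand) are printed because CEBPG was the member that held this form, with the element in capitals.
CEBPG: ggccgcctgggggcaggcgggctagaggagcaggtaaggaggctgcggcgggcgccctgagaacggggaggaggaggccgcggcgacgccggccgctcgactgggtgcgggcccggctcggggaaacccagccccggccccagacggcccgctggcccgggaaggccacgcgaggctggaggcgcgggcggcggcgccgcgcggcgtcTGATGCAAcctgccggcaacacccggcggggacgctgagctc

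Across the lists the same 8 bases stood in the windows of 13 other genes: 12 ATF4 targets and PPP1R15B. Each is shown as 30 bases on the strand that reads TGATGCAA, so that the flanks can be compared.
CHAC1, chr15:40953251-40953280, minus: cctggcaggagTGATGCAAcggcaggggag
JDP2, chr14:75427995-75428024, plus: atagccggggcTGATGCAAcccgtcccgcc
HERPUD1, chr16:56931955-56931984, minus: tgggcacgggcTGATGCAAcccgccgcgtc
SLC1A5, chr19:46784893-46784922, minus: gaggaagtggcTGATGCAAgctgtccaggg
SLC1A4, chr2:64989381-64989410, minus: ccggctggagaTGATGCAAacgggagccgc
AARS1, chr16:70289675-70289704, plus: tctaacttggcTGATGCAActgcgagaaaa
CARS1, chr11:3057407-3057436, plus: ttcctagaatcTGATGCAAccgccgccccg
IARS1, chr9:92293692-92293721, plus: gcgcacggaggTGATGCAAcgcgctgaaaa
MARS1, chr12:57488053-57488082, minus: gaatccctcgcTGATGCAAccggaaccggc
NARS1, chr18:57621804-57621833, minus: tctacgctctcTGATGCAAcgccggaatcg
TARS1, chr5:33440956-33440985, minus: gctggaccagcTGATGCAAtcgaaaggcgc
FGF21, chr19:48755459-48755488, minus: ctcctcctcccTGATGCAAtcctggtgttt
PPP1R15B, chr1:204412026-204412055, minus: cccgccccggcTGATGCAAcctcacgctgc

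Of those 13 genes 9 fell, 1 rose and 3 did not pass. JDP2, a bZIP repressor, fell by 0.77 and SLC1A5, a glutamine transporter, by 0.62. CHAC1, which degrades glutathione, fell by 0.50, and HERPUD1, a component of protein degradation at the endoplasmic reticulum, by 0.49. The 4 tRNA synthetase genes AARS1, MARS1, CARS1 and IARS1 fell by 0.36, 0.33, 0.24 and 0.18, and the amino acid transporter gene SLC1A4 fell by 0.16. The SLC1A4 call was lost without shNC replicate 1 (-0.12), shERCC6L replicate 2 (-0.17) or shERCC6L replicate 3 (-0.15), and its change was -0.11 with probe sets averaged. NARS1 and TARS1 carry the element beside their starts and gave -0.03 and 0.03, with FGF21 at -0.05. PPP1R15B, whose product is the constitutive partner of the eIF2 phosphatase, was the gene of this set that rose, by 0.73.

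A match is a description of the letters and not a site shown to be bound. Among all 14425 measured genes with a window, 136 held TGATGCAA, of which 30 were lower (22.1%) and 15 higher (11%), beside 13.6% lower and 19.5% higher of the genes without it. Leaving out every gene of the lists, 20 of 122 with the element were lower (16.4%) and 14 higher (11.5%). In the looser form TGATGNAA, which includes the first, the element stood in 3.62% of windows, 4.46% of all genes with a window and 3.62% of the measured ones. It stood in 16 of the 45 targets, of which 13 fell. Targets without the element mostly fell too, 16 of 29 (55.2%) without TGATGNAA and 20 of 33 (60.6%) without TGATGCAA. In the tRNA charging list 4 of 6 genes with TGATGCAA fell, and 4 of 5 without it. ATF3 was a second member with this form, 191 bases before its upstream start. ASNS, asparagine synthetase, carries it 68 bases before its start, and the 250 bases before that start (chr7:97872409-97872658, minus strand) are given because it was among the targets that fell most.
ASNS: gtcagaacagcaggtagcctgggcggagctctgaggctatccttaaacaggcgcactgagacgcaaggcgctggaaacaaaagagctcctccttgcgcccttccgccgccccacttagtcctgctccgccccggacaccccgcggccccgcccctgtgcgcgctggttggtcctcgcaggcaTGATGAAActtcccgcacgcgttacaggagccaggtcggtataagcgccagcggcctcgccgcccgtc

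**Figure D4:**
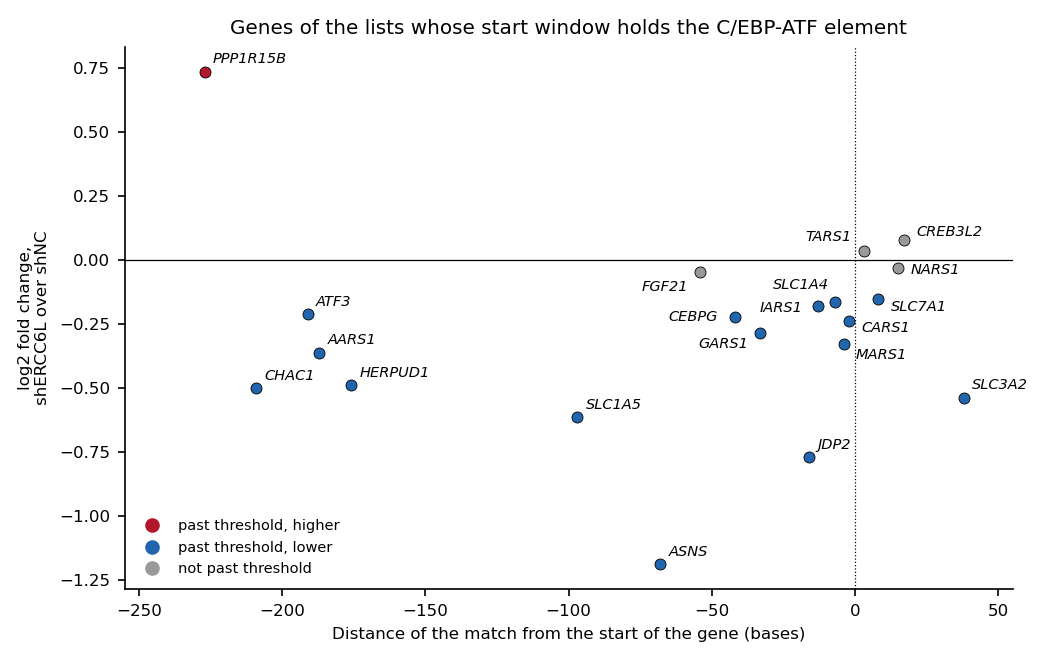
Position of TGATGNAA, on either strand, against the log2 fold change of shERCC6L over shNC, for genes of the lists whose window holds it. Positions, in bases from the gene start (dotted line), are those of the most upstream base of the match. Colour marks the direction of genes past the threshold. Points lie on both sides of the start between -227 and 38 bases, PPP1R15B is the point that rose, and TARS1, NARS1, FGF21 and CREB3L2 did not pass.

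The first list of ATF4 targets holds genes of amino acid synthesis and uptake. Of 20 measured, 13 were lower and 0 higher (0 higher at an unadjusted limma p under 0.05 as well), with a median of -0.17, where 13.4% of all genes were lower. ASNS read 2201, 2321 and 2284 in shNC and 943, 998 and 1014 in shERCC6L, lower on all 4 of its probe sets at -1.22 to -1.19. SLC7A11, the cystine carrier, read 748 to 776 in shNC and 312 to 328 in shERCC6L, and its 3 probe sets ranged from -1.21 to -0.40. CTH, the enzyme that makes cysteine from cystathionine, fell by 0.79 ± 0.04. These 3 were the largest falls of the list, each 1.73-fold or more.

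The second list holds 12 tRNA synthetases and the tRNA export receptor XPOT. Of these 13 genes 9 were lower and 0 higher (0 at an unadjusted limma p under 0.05), and the median was -0.19; of the brighter genes, to which all 13 belong, 19.6% were lower. XPOT read 900.0, 1026 and 918 in shNC and 671, 672 and 775 in shERCC6L, a fall of 0.42 ± 0.07. AARS1 and MARS1 followed, each lower on all of its probe sets (2 and 5). For 10 of the 13 genes every shERCC6L array lay below every shNC array, as it did for 20.3% of all genes.

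The third list holds targets of ATF4 or CHOP in stress and signalling, of which 15 of 25 were lower and 3 higher, with a median of -0.23, beside 13.4% lower and 18.2% higher of all genes. NUPR1, a small stress-inducible nuclear protein, read 492, 461 and 467 in shNC and 169, 179 and 179.7 in shERCC6L. That fall of 1.35 ± 0.04 (limma adjusted p = 1.1e-07) was place 19 of all falls. TXNIP, which binds thioredoxin and is better known as a glucose-responsive gene, fell by 0.85 ± 0.03, and its 5 probe sets, all lower, ranged from -0.85 to -0.70. JDP2 read 139, 139.8 and 159 in shNC and 77.0, 74.7 and 84.2 in shERCC6L, and 2 of its 3 probe sets passed. The 3 genes of the list that rose were TNFRSF10B, a death receptor gene that CHOP induces, by 0.49, SQSTM1, the autophagy receptor p62, by 0.15 and VEGFA, also a target of hypoxia factors, by 0.11. VEGFA passed in 7 of 15 alternative settings, and its call was lost without any 1 of the 6 arrays (0.09 to 0.13). With probe sets averaged the SQSTM1 change was 0.10.

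Other components of the eIF2 machinery were examined as a list of 23 genes, of which 3 were lower and 8 higher, with a median of 0.05, beside 32.8% higher and 19.6% lower among brighter genes. EIF2S3, the gamma subunit of eIF2, read 1448, 1435 and 1467 in shNC and 962, 969.9 and 1005 in shERCC6L. It fell by 0.56 ± 0.03 (limma adjusted p = 4.3e-06), with all 4 of its probe sets lower, whereas all 5 probe sets of the alpha subunit EIF2S1 lay above 0. PPP1R15B read 363, 404 and 362 in shNC and 622, 588 and 703 in shERCC6L, a rise of 0.73 ± 0.07 (limma adjusted p = 4.7e-05), and all 4 of its probe sets were higher. EIF2B2, a subunit of the exchange factor that recycles eIF2, rose by 0.33 and the adaptor gene NCK1 by 0.34.

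The remaining eIF2 kinases changed in opposite directions. EIF2AK2, the double-stranded RNA sensor PKR, rose by 0.17, and EIF2AK1, the heme-regulated kinase HRI, fell by 0.13. EIF2AK2 lost its call without shNC replicate 1 (0.15) or shERCC6L replicate 3 (0.12). EIF2AK1 passed in 9 of 15 alternative settings, and 5 of its 8 probe sets passed as lower. DENR, a factor for reinitiation, fell by 0.15, with 1 of its 3 probe sets lower (range -0.15 to -0.06), and passed in 11 of 15 settings. Without shNC replicate 2 or 3 or shERCC6L replicate 1 or 2 neither passed, with EIF2AK1 at -0.14 to -0.10 and DENR at -0.15 to -0.12. The counts of this list depended on single arrays: 5 were higher without shNC replicate 1, 1 was lower without shNC replicate 2 or 3 or shERCC6L replicate 1 or 2, and 5 were lower without shERCC6L replicate 3.

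The parallel arms of the unfolded protein response, run by ATF6 and IRE1, gave a median of 0.07 over 23 genes, with 9 higher (39.1%) and 4 lower (17.4%). These shares were near those of the brighter genes, 32.8% and 19.6%, to which 22 of the 23 belong. Among the highest were MBTPS2, a protease that releases ATF6, at 0.36, SYVN1, a ubiquitin ligase of endoplasmic reticulum degradation, at 0.26 and SDF2L1, a chaperone cofactor, at 0.24. SYVN1 was higher on 1 of its 2 probe sets, and its change was 0.11 with them averaged. XBP1, the factor that IRE1 splices, fell by 0.21 and MBTPS1, the other ATF6 protease, by 0.27. OSTC, a glycosylation subunit, fell by 1.52 ± 0.04, place 7 of all falls. HSPA5, the chaperone BiP, read 5227 to 5486 in shNC and 4486 to 4677 in shERCC6L and fell by 0.21, and it was the fourth gene that was lower.

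**Figure D5:**
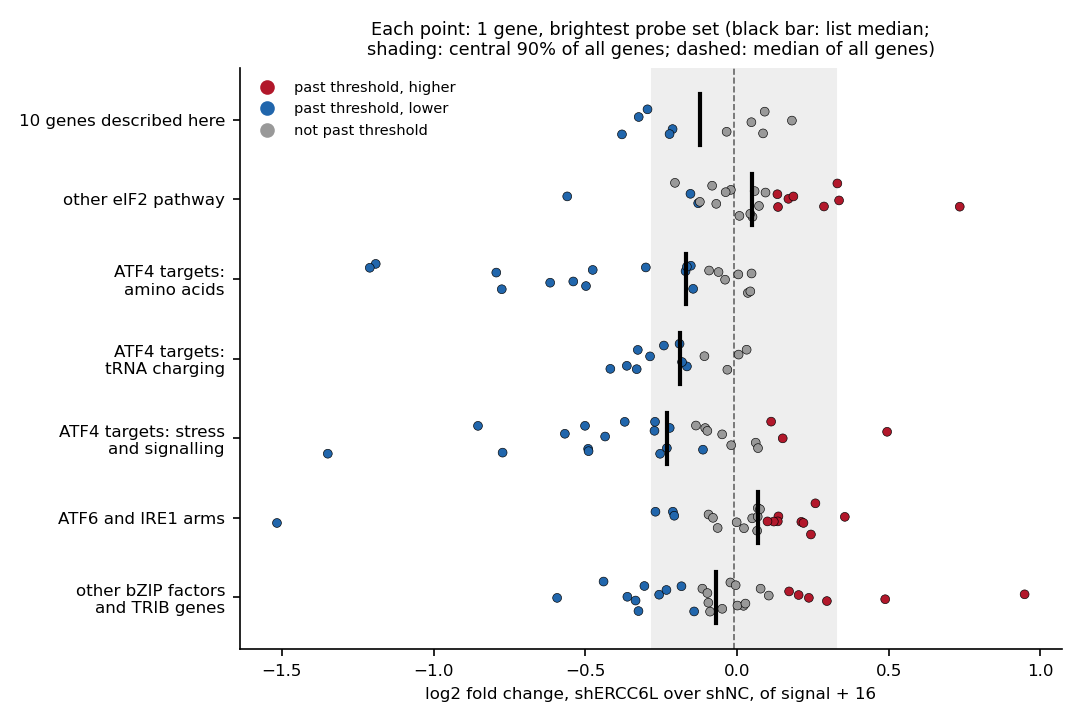
Log2 fold change of shERCC6L over shNC for each gene (point) of the 10 stress response genes and 6 lists of related genes; black bars mark list medians, grey shading the central 90% of all 18132 genes and the dashed line their median. The 3 lists of ATF4 targets have medians of -0.17, -0.19 and -0.23. Medians are 0.05 for the other eIF2 genes, 0.07 for the ATF6 and IRE1 arms and -0.07 for the bZIP list.

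Finally, other factors of the bZIP class were examined, some of which can pair with ATF4, ATF3, DDIT3 or the C/EBP proteins. The list also holds the TRIB3 relatives TRIB1 and TRIB2, and CEBPZ, which has the C/EBP name but is not a bZIP factor. Of 28 genes 10 were lower (35.7%) and 6 higher (21.4%), with a median of -0.07. Of all genes 13.4% were lower and 18.2% higher, and of the brighter ones, to which 22 of the 28 belong, 19.6% and 32.8%. CEBPD read 1324, 1384 and 1373 in shNC and 1107, 1062 and 1124 in shERCC6L, a change of -0.31, or -0.18 with its probe sets averaged. CEBPA, a dim gene, fell by 0.18, but its call was lost without shNC replicate 1 (-0.16) or shNC replicate 3 (-0.17), and its change was -0.28 with a pseudocount of 1 and -0.09 with a pseudocount of 64. CEBPZ, listed for its name, rose by 0.24, and CEBPE, at 0.02, did not pass. ATF2 fell by 0.59 ± 0.08, with 4 of its 5 probe sets lower, and NFIL3 by 0.36. The probe set that stood for CREM fell by 0.44, and over all 10 CREM probe sets 6 were lower and 1 higher. FOSL1, an AP-1 subunit, rose by 0.95, with all 6 of its probe sets higher, and the small MAF genes MAFF and MAFG rose by 0.49 and 0.30. Averaging a gene's probe sets gave -0.38 for ATF2, -0.20 for CREM and 0.32 for MAFF, all still past the threshold. ATF5, a relative of ATF4 from the list of stress targets that is likewise controlled by translation, gave 0.06 and did not pass.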

How the data were processed

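The authors deposited 1 linear intensity per probe set and array. Affymetrix Expression Console made them, per the submitters' processing notes. Its version and its steps (background, scaling, combining of probes) are not given in the sources used. Without detection calls, no background level is known for dim probe sets, and precision is limited by the number of arrays. GEO's annotation of the platform gave 1 symbol for 44994 of 49395 probe sets, several for 1832 and none for 2473; 102 were controls. Gene numbers of 44967 matched RefSeq (GRCh38.p14), which changed no symbol.

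Signals were transformed to log2(signal + 16). Each gene was represented by the probe set whose mean over 6 arrays was highest, and a separate fit used every probe set. The group difference was fitted in R 4.3.3 with limma 3.58.1 (lmFit, eBayes, 2-sided; 4 residual degrees of freedom), Benjamini-Hochberg adjusted over all 18132 genes or 44994 probe sets. The fit was first tested on simulated data with independent noise and 50 genes changed at each size. It recovered 64% of log2 changes of 0.25, 94% of those of 0.5 and 100% of those of 1. Of its 184 calls 2.72% were false. The data themselves gave 5733 calls, so the simulation held far fewer changed genes.

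The genes and lists were chosen with earlier results of these data known, and the DNA elements and the windows printed were chosen after the values were seen. Named were all 10 genes, ERCC6L, and from each list the 3 largest rises and 3 largest falls past the threshold; others were named after their values were seen, among them those with TGATGCAA. CBS, GPT2, ATF1, MAFK and CA9 were not analysed here. Replicate numbers are shared between the groups, but the deviations of same-numbered arrays correlated at 0.22, -0.15 and -0.03, so they were not treated as pairs. Sequences are RefSeq's. Alternatives were a replicate block, 2 normalizations, other pseudocounts (1 and 64), a filter, other variance models, averaged probe sets and leaving out each array.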

Additional observations from a re-analysis of the deposited data

How the results depend on the processing

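All 5 transcription factors that fell stayed past the threshold in all 15 alternatives, and no result past the threshold changed sign. Changes that did not pass crossed 0 for EIF2AK3 (-0.07 to 0.01), NARS1 (-0.05 to 0.01), ATF5 (-0.01 to 0.11) and HSP90B1 (-0.05 to 0.04). The count of lower members was 5 throughout. The count of higher members, 0, became 1 with median centring, without the dimmest genes, with an intensity trend and robust estimation or with array weights (PPP1R15A in each), and 2 with probe sets averaged (PPP1R15A and EIF2S1). Leaving out 1 array gave 0 to 1. With the replicate block 0 members were higher and 5 lower, and it changed no call of a member gene; the block brought 1 more ATF3 probe set past the threshold (-0.18, limma adjusted p = 0.018). Among the other eIF2 genes, the 3 lower became 6 with quantile normalization, and 5 with the trend, with array weights or with probe sets averaged. Leaving out 1 array gave 1 to 5 lower and 5 to 9 higher. Averaging made 1 amino acid target higher. The cause of these changes was not tested. With 3 arrays per group and no detection calls, levels of dim probe sets have no background to be set against.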

Other observations

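Promoter elements of the neighbouring stress pathways were looked up in the same RefSeq windows as the C/EBP-ATF element, on both strands. The endoplasmic reticulum stress element (ERSE) stood in 25 genes with a window, or 0.0916%, and in 0.125% of the measured ones. It stood in 7 of the 23 genes of the ATF6 and IRE1 arms. This element too was chosen after the values were seen, and genes may be listed for carrying it, so these shares are no test. Of those 7, CANX rose by 0.14, HSPA5 and XBP1 fell by 0.21 each, and CALR, CRELD2, HSP90B1 and PDIA6 did not pass. None of the windows of the 10 stress response genes held it. The cyclic AMP response element, TGACGTCA, stood in 2.25% of all genes with a window and in 3.11% of the measured ones. It stood in 1 of the 10, PPP1R15A, 58 bases before its start (chr19:48872171-48872420, plus strand, element in capitals). The ATF4 targets with a window did not hold it.
PPP1R15A: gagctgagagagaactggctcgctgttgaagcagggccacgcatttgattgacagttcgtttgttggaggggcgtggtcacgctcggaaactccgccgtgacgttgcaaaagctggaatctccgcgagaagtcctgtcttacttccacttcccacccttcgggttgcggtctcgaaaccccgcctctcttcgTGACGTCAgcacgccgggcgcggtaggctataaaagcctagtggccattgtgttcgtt
Among all measured genes with TGACGTCA, 27.0% were higher and 12.9% lower, beside 19.1% and 13.8% without it.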
